A study of Mus musculus with 12 samples.

Results

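The genes described here are the parts and regulators of the contractile and actin cytoskeleton: muscle actins, myosins, the proteins of the thin filament, actin crosslinkers, focal adhesion and LIM domain proteins, the transcription factors that drive them and further regulators. 43 genes were listed by symbol, and each was measured by a probeset (the set of array probes that reads 1 transcript) annotated to that symbol alone. Where a gene had several such probesets, that with the highest mean over the 12 arrays stood for it. 38 of the 43 were measured in this way, among 17097 genes in all. Tagln, Tagln2, Smtn, Actn4 and Rock2 were not analysed here because no probeset was given to the symbol alone in the annotation used.

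RNA was profiled on Affymetrix MG-430 PM arrays from mesenchymal stem/stromal cells (MSCs), which can form bone, fat and cartilage cells in culture. The MSCs came from bone marrow of FVB/NJ mice carrying floxed alleles of Mapk14, which encodes the kinase p38α, and Cre-ERT2 driven by the ubiquitin C promoter, and had been immortalized. All 4 groups therefore carried both the floxed alleles and the inducible Cre, and p38α∆ MSCs (labelled KO) were cells in which 4-hydroxytamoxifen had been used to delete p38α, whereas WT MSCs (labelled CTRO) had been given vehicle. The methods of the study name another strain background for its experimental mice, so that the strain is not settled here. All cells were starved in 0.5% serum, and TGF-β-treated cells received 5 ng/ml TGF-β for 20 h. There were 4 WT arrays (numbered 1, 3, 4 and 4b), 3 of TGF-β-treated WT MSCs (1, 3 and 4), 2 of p38α∆ MSCs (1 and 3) and 3 of TGF-β-treated p38α∆ MSCs (1, 2 and 4). The labels do not say whether arrays of a group were separate cultures, so p-values measure only the spread between these arrays.

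In cells that pull on their surroundings, myosin II slides actin filaments that are held to the matrix through focal adhesions. Serum response factor (SRF) binds a short sequence, the CArG box, in front of many of these genes, and is switched on by myocardin in smooth muscle or by the myocardin-related factors, which enter the nucleus when free actin monomers are used up. In mesenchymal cells TGF-β is widely known as an inducer of this set, and the question here was which of its members responded to TGF-β in WT and in p38α∆ MSCs.

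The promoters that hold the CArG box are shown first, since they tie the regulator Srf to its possible targets within the list. RefSeq start sites on the GRCm38.p6 build were given for 36 of the 43 members, and not for Myocd, Pxn, Actg2, Rock1, Tagln, Myh11 and Csrp2. The box searched was CC, then any 6 letters that are each A or T, then GG, which reads alike on both strands, in the 250 bases before each start. It was found in 5 of the 36 members (13.9%), against 1.62% of 27025 genes and 1.47% of 32851 windows of the same length. A match is a description of these letters only. A box with a changed letter or outside the window would not be found, so a member without a match is not shown to lack SRF binding. The capitals below mark the box, and each sequence runs 5′ to 3′ on the gene's strand up to the base before the start.
Srf, chr17:46556163-46556412, minus strand: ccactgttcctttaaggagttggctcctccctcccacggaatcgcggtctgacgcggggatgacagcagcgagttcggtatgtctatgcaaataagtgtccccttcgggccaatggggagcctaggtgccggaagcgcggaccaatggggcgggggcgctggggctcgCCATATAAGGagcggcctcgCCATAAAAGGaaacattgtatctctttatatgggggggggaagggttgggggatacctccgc
Vcl, chr14:20929148-20929397, plus strand: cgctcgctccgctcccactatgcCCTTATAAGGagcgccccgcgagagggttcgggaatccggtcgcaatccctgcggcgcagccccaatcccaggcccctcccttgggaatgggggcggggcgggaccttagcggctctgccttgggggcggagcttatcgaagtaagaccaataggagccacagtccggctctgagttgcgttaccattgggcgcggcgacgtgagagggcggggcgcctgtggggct
Myl9, chr2:156775214-156775463, plus strand: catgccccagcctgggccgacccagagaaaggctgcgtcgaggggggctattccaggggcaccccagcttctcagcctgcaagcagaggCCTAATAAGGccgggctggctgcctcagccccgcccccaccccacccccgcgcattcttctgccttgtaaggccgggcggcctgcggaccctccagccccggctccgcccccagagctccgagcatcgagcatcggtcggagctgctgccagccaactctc
Cnn2, chr10:79988350-79988599, plus strand: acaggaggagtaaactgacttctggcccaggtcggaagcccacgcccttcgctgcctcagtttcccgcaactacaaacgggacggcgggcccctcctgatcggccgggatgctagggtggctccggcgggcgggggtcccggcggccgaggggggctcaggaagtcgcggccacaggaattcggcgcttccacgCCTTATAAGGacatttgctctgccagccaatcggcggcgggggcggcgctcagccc
Myl6, chr10:128493010-128493259, minus strand: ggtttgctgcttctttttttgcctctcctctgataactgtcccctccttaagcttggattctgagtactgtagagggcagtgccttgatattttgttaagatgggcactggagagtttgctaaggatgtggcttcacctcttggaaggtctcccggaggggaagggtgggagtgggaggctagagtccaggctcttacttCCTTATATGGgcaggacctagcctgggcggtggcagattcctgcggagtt
Srf itself held 2 boxes, beginning 82 and 62 bases before the start. The other boxes began 227 bases before the start in Vcl, 161 in Myl9, 56 in Cnn2 and 50 in Myl6. With the probesets used, Srf passed the test for TGF-β in both genotypes, and Vcl, Myl9, Cnn2 and Myl6 passed in neither, as given below, where Vcl depended on the probeset.

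Other motifs were searched in the same windows, on both strands. The MCAT letters CATTCC, to which TEAD factors bind, were in 14 of the 36 members (38.9%) against 14.4% of all genes, among them Acta2, Cald1, Mylk, Tpm1, Palld and Vcl. The AP-1 letters TGANTCA were in 5 members (13.9%), namely Actn4, Cald1, Mylk, Palld and Zyx, against 7.82% of all genes. The SMAD palindrome GTCTAGAC was in 0 members, against 0.2% of all genes. Promoters were given for 5 of the 7 members that passed in any comparison, of which 1 held a CArG box, 1 an MCAT site and 2 an AP-1 site.

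Before the members, the labels and the arrays were checked. Smad7, a direct SMAD target, was 6.15 to 6.54 in WT and 7.49 to 7.56 in TGF-β-treated WT MSCs, and 5.90 to 6.19 in p38α∆ and 7.67 to 8.02 in TGF-β-treated p38α∆ MSCs, on the log2 scale of the deposited values. The targeted gene, Mapk14, was 8.95, 9.12, 9.07 and 9.11 on the WT arrays 1, 3, 4 and 4b and 9.01 and 9.03 on the p38α∆ arrays 1 and 3. With TGF-β it was 9.06, 9.31 and 9.32 in WT (1, 3 and 4) and 9.27, 9.51 and 9.50 in p38α∆ MSCs (1, 2 and 4), so it was not lower in p38α∆ MSCs. Where this probeset lies relative to the deleted part is not known here, so that it checks nothing about the deletion. The 4 arrays numbered 1 stood apart from the other 8 on the first principal component, which held 47.5% of the variance of all genes and 53.3% of that of the members. Pdgfrb, Itgb1 and Cd44, which mark MSCs, had mean values of 9.26, 11.17 and 10.32, whereas Thy1 and Eng were at 3.38 and 4.60. The 6 endothelial markers did not exceed 4.10 on any array, nor the 6 leukocyte markers 5.14.

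The heat map gives each member's value on each array. 5 defining genes of mature smooth muscle lay near the lower end of the scale, which ran from 2.28 to 13.06 with a median gene mean of 5.11. Over the 12 arrays, Myh11, the smooth muscle myosin heavy chain, had a mean of 3.70, Synpo2 of 3.37, Lmod1 of 4.49, desmin (Des) of 3.69 and Myocd, which encodes myocardin, of 3.41. The other 33 members had means above 5.11, and these included Actg2, the enteric smooth muscle actin, at 9.08, and calponin 1 (Cnn1) at 9.37. Probes differ in brightness, so these values place a gene on the scale of the array and do not rank transcripts.

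**Figure D1:**
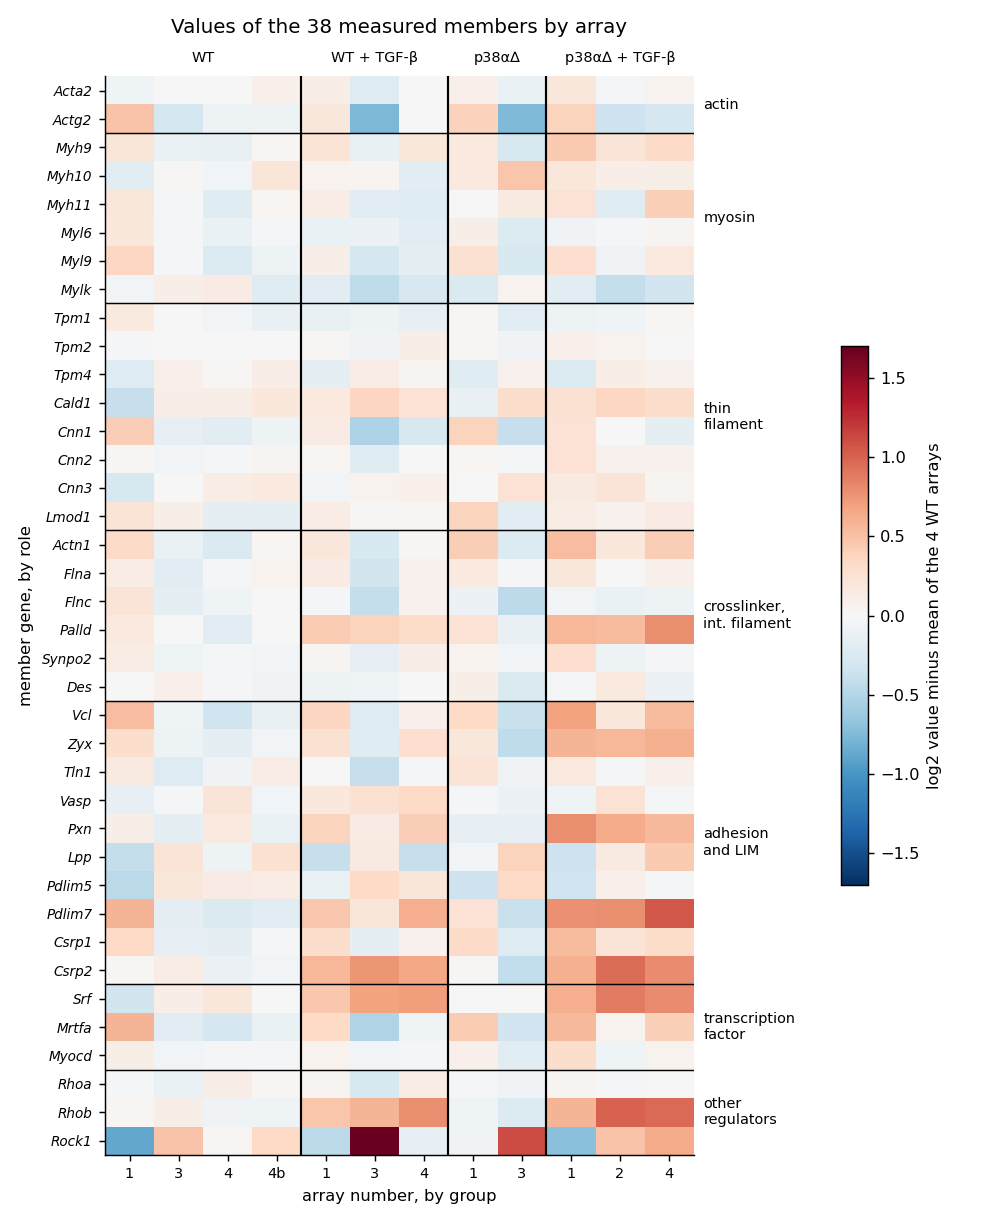
Heat map of the 38 measured members (rows, grouped by role) on the 12 arrays (columns, grouped by treatment and genotype), coloured by the log2 value minus the mean of the 4 WT arrays. Srf, Rhob and Csrp2 are redder on every TGF-β-treated array than on any untreated one, and the rows of Actg2 and Cnn1 follow the array number, with all arrays numbered 1 above the others.

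Of the 38 measured members, 5 rose and 0 fell with TGF-β in WT MSCs: Srf, Csrp2, Rhob, Palld and Pxn. Among them are a transcription factor, a LIM protein, an actin-bundling protein and a focal adhesion scaffold, and none of the 5 is an actin, a myosin or a thin filament protein. In this comparison 9.38% of all genes passed, 4.02% higher and 5.36% lower, against 13.2% of the members higher. The members were listed with earlier results of these data known, so here and below such shares describe the list and do not test it. The median change of the members was -0.01 on the log2 scale, equal to that of all genes, and 19 of 38 were above 0. In 4 members, Srf, Csrp2, Rhob and Palld, all TGF-β-treated arrays lay above all untreated ones (10.5%, against 5.37% of all genes). The test was limma with the array number as a random block and Benjamini-Hochberg adjustment over all genes, called at an adjusted p under 0.05.

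Srf encodes serum response factor, which binds the CArG boxes shown above. Its values were 7.42, 7.84, 7.93 and 7.73 on the WT arrays 1, 3, 4 and 4b and 8.19, 8.42 and 8.44 on the TGF-β-treated WT arrays 1, 3 and 4. The groups did not overlap, and the fitted difference was 0.64 ± 0.09 on the log2 scale (SE, adjusted p = 0.000751), a 1.56-fold rise. Between arrays of the same number, the difference was 0.77 for number 1, 0.58 for number 3 and 0.61 for number 4. The probeset used is of a kind that may match several transcripts, and the other Srf probeset, with a mean of 4.90, changed by 0.11, which did not pass.

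Csrp2 encodes a LIM domain protein that acts with SRF in smooth muscle. It was 10.52, 10.62, 10.40 and 10.46 on the WT arrays 1, 3, 4 and 4b and 11.06, 11.25 and 11.16 with TGF-β on arrays 1, 3 and 4. The groups did not overlap, and the difference was 0.65 ± 0.11 (SE, adjusted p = 0.00231). Rhob, known as a quickly induced gene, was 7.87, 7.95, 7.78 and 7.77 in WT and 8.31, 8.42 and 8.63 in TGF-β-treated WT MSCs, again without overlap, and rose by 0.62 ± 0.10 (SE, adjusted p = 0.00238). Rhoa was between 11.29 and 11.51 in WT and between 11.13 and 11.53 with TGF-β, and its difference of -0.02 (95% interval -0.18 to 0.15) did not pass.

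Palld encodes palladin, which bundles actin and binds α-actinin. It was 10.18, 10.02, 9.84 and 10.03 in WT and 10.45, 10.39 and 10.32 in TGF-β-treated WT MSCs, with no overlap, and rose by 0.37 ± 0.10 (SE, adjusted p = 0.035). Another Palld probeset, with a mean of 10.14, changed by 0.69 (adjusted p = 0.00482 over all probesets). Pxn encodes paxillin, a scaffold of focal adhesions. It was 7.90, 7.65, 7.96 and 7.68 in WT and 8.18, 7.93 and 8.21 with TGF-β, so that the groups overlapped by 1 array. Its difference was 0.32 ± 0.09 (SE, adjusted p = 0.0462). The other Pxn probeset, with a mean of 7.77, changed by 0.21, which did not pass. The calls of these genes rested on the setting: Palld passed in 13 and Pxn in 6 of 21 alternative settings, whereas Srf, Csrp2 and Rhob passed in all 21.

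**Figure D2:**
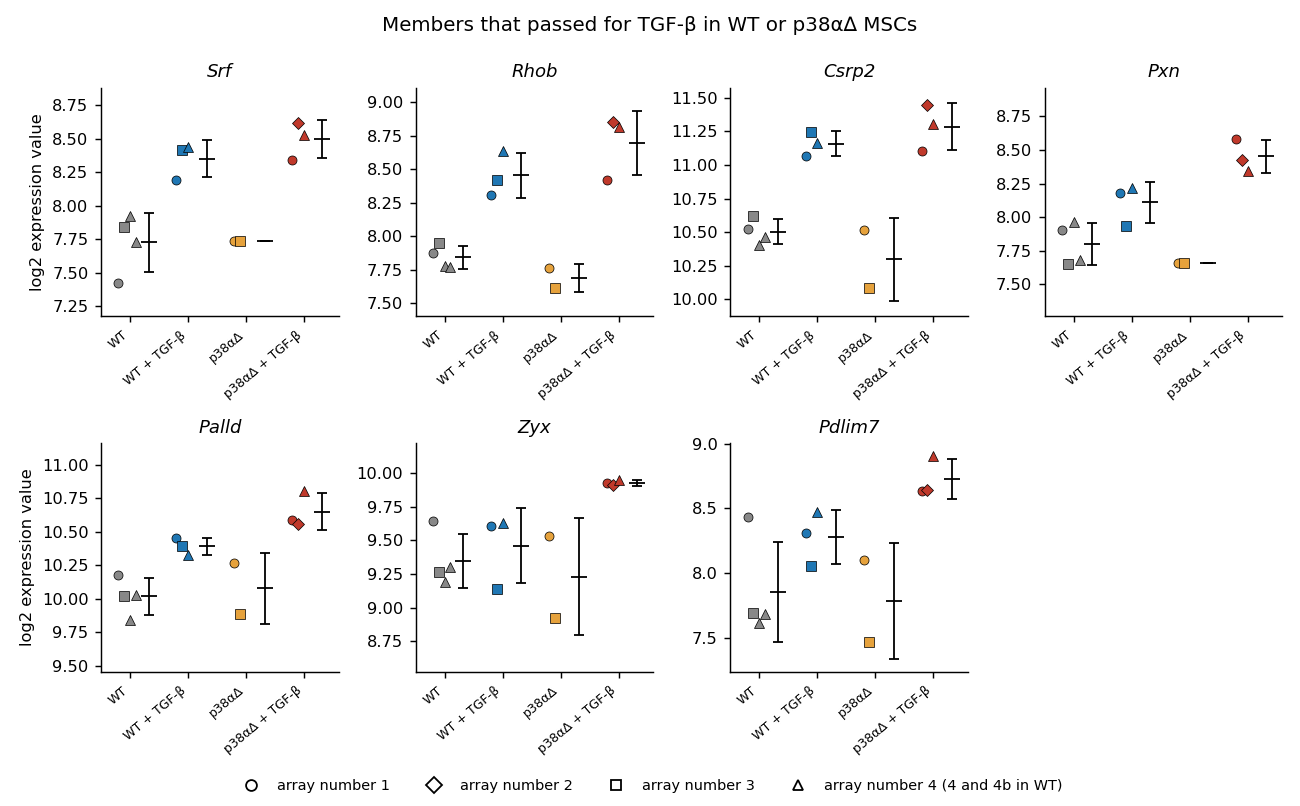
Values of the 7 members that passed for TGF-β in WT or p38α∆ MSCs, 1 panel a gene, with 1 point for each array (shape gives the array number) and a bar for the mean ± SD of the group. The y axis is the log2 value, with its own range in each panel. In all 7 panels the p38α∆ arrays with TGF-β all lie above every untreated array of either genotype, and in Pxn, Palld, Zyx and Pdlim7 also above every TGF-β-treated WT array.

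The members that make up the contractile filaments did not pass in WT MSCs. Acta2, α-smooth muscle actin and the usual marker of myofibroblasts, was 11.92, 11.98, 11.97 and 12.07 in WT and 12.10, 11.77 and 11.996 with TGF-β. The groups overlapped, and the difference was -0.03 (95% interval -0.20 to 0.15). This probeset lay at the 99.85th percentile of all genes, on a scale that ended at 13.06. Whether it could show a rise at that level, in either genotype, was not tested. Cnn1, which binds actin and slows myosin, was 9.83, 9.27, 9.22 and 9.33 in WT and 9.55, 8.89 and 9.14 with TGF-β, a difference of -0.24 (-0.50 to 0.01). Mylk encodes myosin light chain kinase, which switches smooth muscle and non-muscle myosin on. Its values of 8.55, 8.69, 8.73 and 8.39 in WT and 8.39, 8.16 and 8.32 with TGF-β overlapped, and its difference of -0.30 (-0.53 to -0.08) did not pass after adjustment (adjusted p = 0.103). Cald1, caldesmon, was 10.67 on the WT array 1 and 11.17 to 11.25 on the other WT arrays, and 11.24 to 11.43 with TGF-β, with a difference of 0.27 (0.05 to 0.49, adjusted p = 0.141).

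Among the other filament members, the differences in WT were -0.14 for the myosin light chains Myl6 and Myl9, -0.13 for tropomyosin Tpm1, 0.03 for Tpm2, 0.02 for Tpm4 and 0.05 for calponin 3 (Cnn3), and none passed. Of the adhesion members, the talin gene Tln1 changed by -0.13 (-0.30 to 0.05) and the LIM protein gene Lpp by -0.20 (-0.53 to 0.13), and neither passed. The 95% interval of the difference lay within 0.5 of 0 for 28 of the 38 members and within 1 of 0 for 37. Rock1, a kinase that acts on myosin, was the exception, with values from 4.64 to 5.99 in WT and from 5.06 to 7.18 with TGF-β.

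In p38α∆ MSCs, 7 members rose with TGF-β and 0 fell: Csrp2, Rhob, Pdlim7, Pxn, Srf, Zyx and Palld. Here 8.4% of all genes passed, 3.43% higher and 4.97% lower, against 18.4% of the members higher. The 5 genes that rose in WT MSCs were among the 7. The focal adhesion and LIM domain group held 4 of the 7, out of 10 measured. The median change of the members was 0.07, against 0.00 for all genes, and 29 of 38 were above 0. In 10 members all treated arrays lay above both untreated ones (26.3%, against 9.67% of all genes), and these were the 7 that passed with Myh9, Cnn2 and Rhoa. The untreated p38α∆ group had only 2 arrays.

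Csrp2 was 10.52 and 10.08 on the p38α∆ arrays 1 and 3 and 11.11, 11.45 and 11.30 on the TGF-β-treated p38α∆ arrays 1, 2 and 4. It rose by 0.96 ± 0.14 on the log2 scale (SE, adjusted p = 0.00135), which is 1.94-fold. Rhob was 7.76 and 7.61 without and 8.42, 8.85 and 8.81 with TGF-β, and rose by 0.94 ± 0.14 (SE, adjusted p = 0.00114). Srf was 7.74 on both untreated arrays and 8.34, 8.62 and 8.53 with TGF-β, and rose by 0.71 ± 0.12 (SE, adjusted p = 0.00282). None of the 3 overlapped between the groups, and all 3 passed in all 20 alternative settings.

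Pxn, Zyx and Pdlim7 had higher fitted changes than in WT MSCs, and Vasp (0.04, against 0.27 in WT) and Pdlim5 (-0.11, against 0.16) lower ones, but no difference of the responses passed the test. Pxn was 7.66 on both untreated p38α∆ arrays and 8.59, 8.43 and 8.34 with TGF-β, and rose by 0.76 ± 0.12 (SE, adjusted p = 0.00176), passing in all 20 alternatives. Zyx encodes zyxin, a LIM protein that moves from adhesions to stress fibres when they are stretched. It was 9.54 and 8.92 without and 9.93, 9.91 and 9.95 with TGF-β, and rose by 0.63 ± 0.15 (SE, adjusted p = 0.0254). Its values with TGF-β lay close together, and the untreated arrays lay far apart. The other Zyx probeset, with a mean of 5.48, changed by 0.41, which did not pass (adjusted p = 0.172 over all probesets). The other Pxn probeset changed by 0.67 and passed (adjusted p = 0.0183 over all probesets).

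Pdlim7 encodes enigma, a PDZ and LIM protein that binds actin filaments through tropomyosin. It was 8.10 and 7.47 without and 8.63, 8.64 and 8.90 with TGF-β, and rose by 0.89 ± 0.22 (SE, adjusted p = 0.0267). The other Pdlim7 probeset, with a mean of 6.49, changed by 0.41, which did not pass (adjusted p = 0.362 over all probesets). Palld was 10.27 and 9.89 without and 10.59, 10.56 and 10.80 with TGF-β, a rise of 0.58 ± 0.13 (SE, adjusted p = 0.0137). With the other bright Palld probeset the change was 0.59, which is lower than the 0.69 of that probeset in WT MSCs, whereas with the probeset used it was higher than in WT. Zyx and Pdlim7 each passed in 15 and Palld in 19 of 20 alternatives. Without the p38α∆ array 3, 4 members passed, and Zyx (0.47), Pdlim7 (0.72) and Palld (0.43) did not, with adjusted p of 0.205, 0.191 and 0.135. That setting left 1 untreated p38α∆ array, which was assumed to vary as the other groups did.

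**Figure D3:**
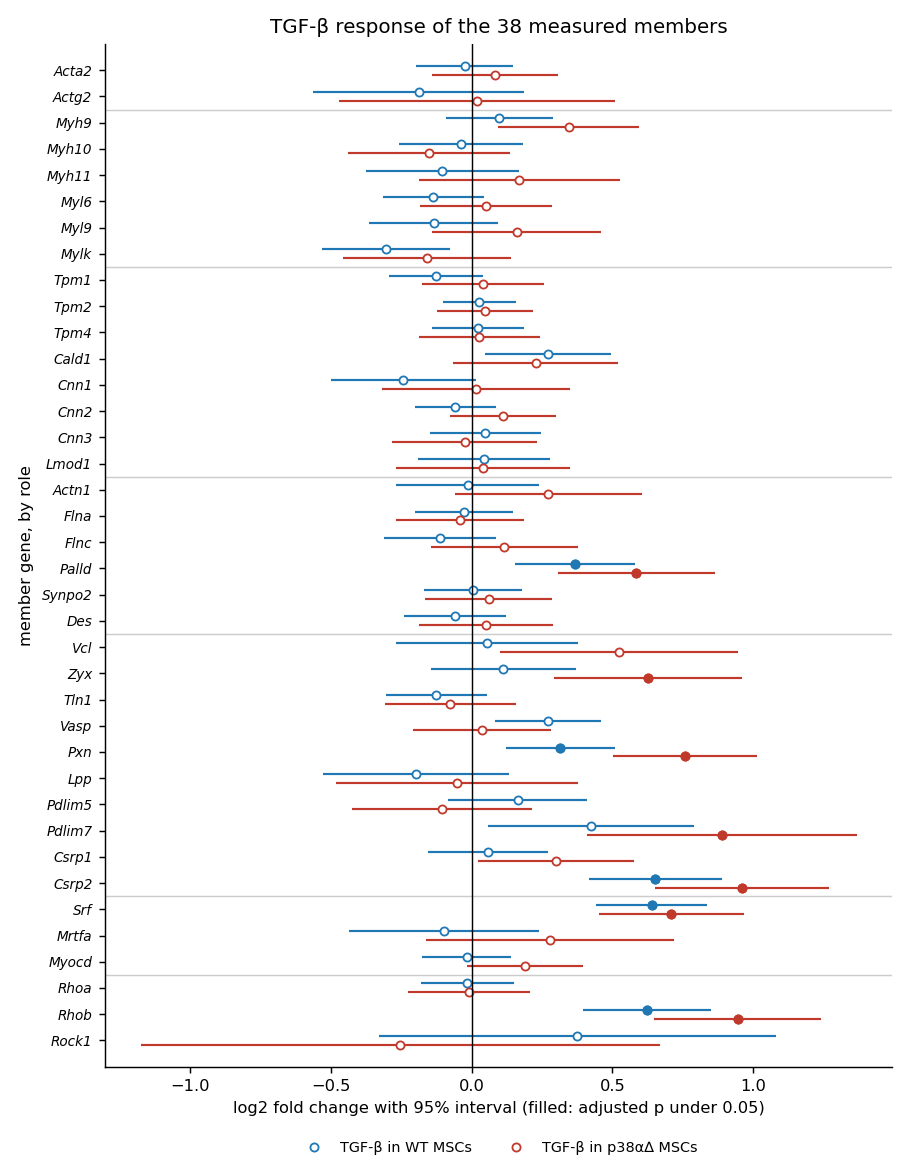
Fitted log2 fold change of TGF-β-treated against untreated cells for the 38 measured members, in WT (blue) and p38α∆ MSCs (red), with 95% intervals from limma (filled points passed at an adjusted p under 0.05). The 5 filled blue points and 7 filled red points all lie to the right of 0, and the actins, myosins and thin filament proteins hold open points only.

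The contractile filament members did not pass in p38α∆ MSCs either. Acta2 was 12.07 and 11.87 without and 12.19, 11.97 and 12.05 with TGF-β, a difference of 0.08 (95% interval -0.14 to 0.31). The differences were 0.02 for Actg2 (-0.47 to 0.51), 0.02 for Cnn1 (-0.32 to 0.35), 0.16 for Myl9 (-0.14 to 0.46) and -0.16 for Mylk (-0.46 to 0.14). Myh9, the heavy chain of non-muscle myosin IIA, was 9.92 and 9.47 without and 10.18, 9.97 and 10.07 with TGF-β. Its difference of 0.34 (0.09 to 0.59) did not pass (adjusted p = 0.0949). Vcl encodes vinculin, which ties talin to actin, and was 10.18 and 9.46 without and 10.52, 10.03 and 10.39 with TGF-β, a difference of 0.52 (0.10 to 0.95, adjusted p = 0.141). The other Vcl probeset, with a mean of 8.88, passed over all probesets in both genotypes, with a change of 0.35 in WT (adjusted p = 0.0498) and of 0.65 in p38α∆ MSCs (adjusted p = 0.00919), against 0.06 in WT for the probeset used. Tln1 encodes talin 1, which links integrins to actin, and was 10.55 and 10.27 without and 10.49, 10.30 and 10.41 with TGF-β, a difference of -0.08 (-0.31 to 0.16). Here the interval lay within 0.5 of 0 for 22 of 38 members, and within 1 for 33.

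The 2 responses were then compared directly. The response in p38α∆ minus that in WT MSCs had a median of 0.17 over the members, and 30 of 38 were above 0, but 0 members passed, as did 0% of all genes. At an unadjusted p under 0.05 there were 920 genes (5.38%) and 2 of 38 members, Zyx (0.51, 95% interval 0.08 to 0.94, adjusted p = 0.878) and Pxn (0.44, 0.12 to 0.77, adjusted p = 0.848). For Srf, the difference of the responses was 0.07 (-0.26 to 0.40), for Csrp2 0.31 (-0.09 to 0.70) and for Rhob 0.32 (-0.06 to 0.70). These intervals hold 0 as well as differences of up to 0.40 or 0.70 on the log2 scale, so that an equal response was not shown. The median of 0.17 was 0.07 without the p38α∆ array 3 and 0.28 without the p38α∆ array 1.

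Among TGF-β-treated cells 0 members passed in p38α∆ against WT MSCs, and 0.45% of all genes did. Of the 38 members, 33 were above 0, with a median of 0.11, against 48.2% of all genes and a median of -0.01. At an unadjusted p under 0.05, 8 members were higher, 21.1% against 4.54% of all genes, and 1 was lower, Vasp, against 4.06%. Members share arrays and are often regulated together, so that their number is not a number of independent results. For 8 members, 21.1% against 5.26% of all genes, the 3 p38α∆ arrays all lay above the 3 WT arrays: Myh10, Myl6, Tpm1, Cnn2, Palld, Zyx, Pxn and Pdlim7. In these bulk samples, a change in the share of cells that carry a transcript and a change in its level per cell cannot be told apart.

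The highest differences were in the adhesion group. With TGF-β, Zyx was 9.61, 9.14 and 9.63 in WT (1, 3 and 4) and 9.93, 9.91 and 9.95 in p38α∆ MSCs (1, 2 and 4), a difference of 0.40 (95% interval 0.11 to 0.69, adjusted p = 0.324). Pdlim7 was 8.31, 8.05 and 8.47 against 8.63, 8.64 and 8.90, a difference of 0.40 (-0.02 to 0.81). Pxn was 8.18, 7.93 and 8.21 against 8.59, 8.43 and 8.34, a difference of 0.31 (0.09 to 0.54) and the lowest adjusted p of the members, 0.306. For these genes, with the probesets used, the lowest p38α∆ value was above the highest WT value. With their other probesets the differences were 0.21 for Zyx, 0.04 for Pdlim7 and 0.35 for Pxn, and none passed. Vcl differed by 0.38 (0.01 to 0.75), the crosslinker Actn1 by 0.36 (0.07 to 0.65) and Csrp1, a LIM protein close to Csrp2, by 0.25 (0.01 to 0.50), with overlapping arrays.

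With the probesets used, myosin members were all above 0, from 0.03 for Mylk to 0.31 for Myh11. Myh11 lay near the lower end of the scale, and its arrays overlapped, at 3.46 to 3.81 in WT and 3.47 to 4.08 in p38α∆ MSCs. Its other probeset differed by 0.11. Cnn2, a calponin of non-muscle cells with a CArG box in the window shown, was 11.41, 11.18 and 11.37 in WT, against 11.62, 11.45 and 11.45 in p38α∆ MSCs, a difference of 0.18 (0.02 to 0.35). Mrtfa encodes the myocardin-related factor that carries the actin signal to SRF. It was 9.02, 8.17 and 8.61 against 9.23, 8.73 and 9.08 and differed by 0.38 (-0.01 to 0.76), whereas Srf differed by 0.14 (-0.09 to 0.36). Vasp, which speeds the growth of actin filaments, was 7.49, 7.57 and 7.65 against 7.24, 7.55 and 7.29, a difference of -0.25 (-0.47 to -0.04).

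Acta2 depended on the probeset. With that used here, it was 12.10, 11.77 and 11.996 in WT, against 12.19, 11.97 and 12.05 in p38α∆ MSCs with TGF-β, a difference of 0.10 (-0.09 to 0.30). The other Acta2 probeset had a mean of 3.97, near the lower end of the scale. It was chosen when the highest median absolute deviation set the probeset, and it then differed by 0.95 (adjusted p = 0.0372). Over all probesets its adjusted p was 0.051, which did not pass. Without TGF-β this probeset differed by 0.41 between p38α∆ and WT MSCs, which did not pass (adjusted p = 0.987 over all probesets). Its changes with TGF-β, -0.09 in WT and 0.45 in p38α∆ MSCs, did not pass either.

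Without TGF-β, 0 members and 0% of all genes passed, with 841 genes (4.92%) and 2 of 38 members at an unadjusted p under 0.05. The members' median was -0.01, with 17 above and 21 below 0. Myh10, the heavy chain of non-muscle myosin IIB, was 9.45, 9.64, 9.58 and 9.84 in WT, against 9.80 and 10.10 in p38α∆ MSCs, a difference of 0.31 (95% interval 0.05 to 0.57, adjusted p = 0.982). Flnc, filamin C, was 8.81, 8.41, 8.51 and 8.59 against 8.48 and 8.13, a difference of -0.24 (-0.48 to -0.01, adjusted p = 0.982). Rhob was the only member whose groups did not overlap, at 7.77 to 7.95 in WT and 7.61 to 7.76 in p38α∆ MSCs, against 3.0% of all genes that were lower without overlap. The groups had 4 and 2 arrays, and the intervals lay within 0.5 of 0 for 33 of 38 members.

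**Figure D4:**
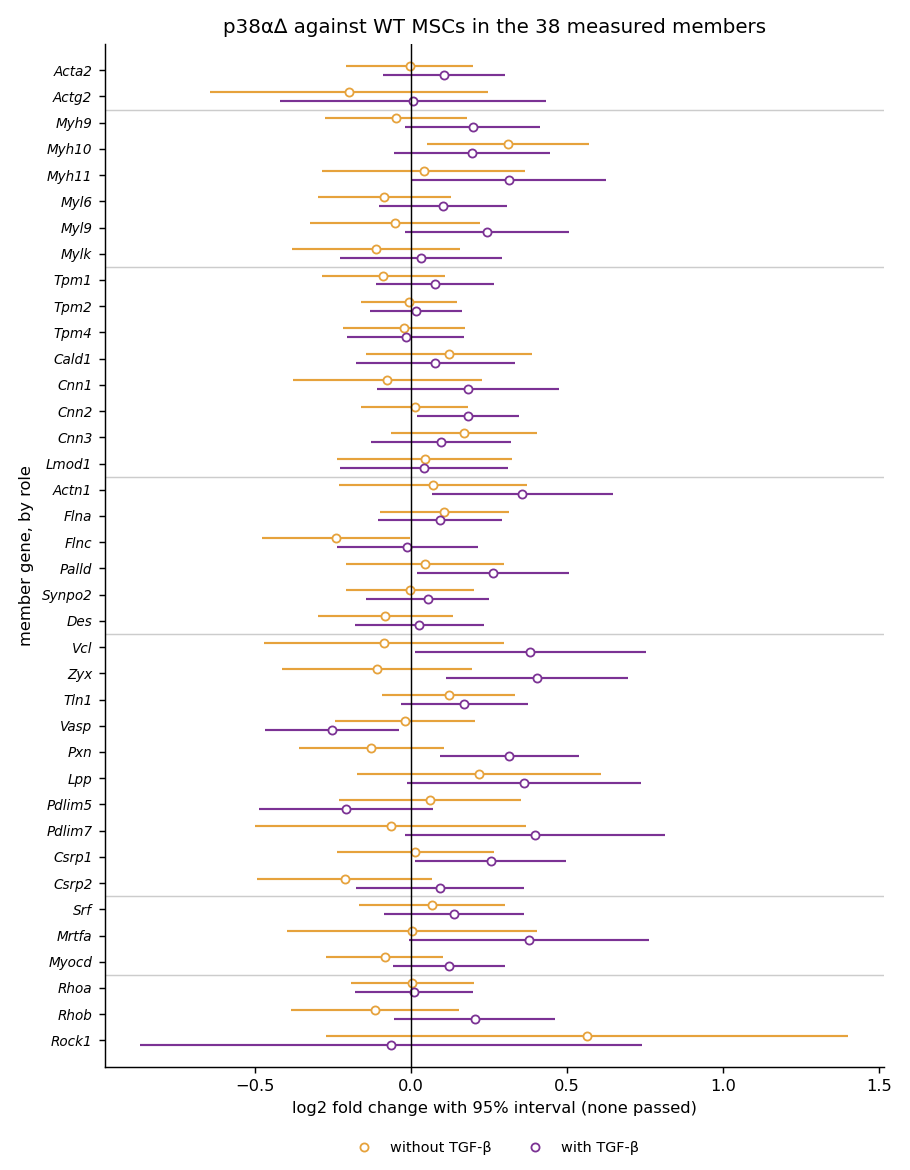
Fitted log2 difference of p38α∆ against WT MSCs for the 38 measured members without TGF-β (orange) and with TGF-β (purple), with 95% intervals from limma. No point passed at an adjusted p under 0.05. With TGF-β 33 of 38 points lie above 0, and without TGF-β 17 do.

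Of the 4 measured pericyte markers, 1 passed for genotype among TGF-β-treated cells. Mcam (CD146), a perivascular marker, was 4.20 to 4.33 in TGF-β-treated WT and 5.26 to 5.62 in TGF-β-treated p38α∆ MSCs, a difference of 1.14 (adjusted p = 0.00273). The others did not pass, with differences of -0.20 for Rgs5, 0.02 for Notch3 and 0.05 for Kcnj8, and the mean of all 4, Mcam included, was 4.09 to 4.32 and 4.41 to 4.55 on these arrays. The part of these markers in the members' differences was not tested. The mean of the 7 measured markers of mature smooth muscle, of which Actg2, Myh11, Lmod1, Synpo2, Des and Myocd are also members, was 4.22 to 4.43 in TGF-β-treated WT and 4.33 to 4.58 in TGF-β-treated p38α∆ MSCs, so that these groups overlapped. That of the 6 endothelial markers was 3.50 to 3.70 and 3.57 to 3.85.

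Some members, as many genes of the series, followed the number of the array more than its group. On the 4 arrays numbered 1, Actg2 was 9.38 to 9.66, and on the other 8 it was 8.42 to 9.19. Cnn1 was 9.55 to 9.83 against 8.89 to 9.42, and Flna, the actin crosslinker filamin A, 10.95 to 11.01 against 10.50 to 10.90. Pdlim5, a PDZ and LIM protein, was lower at 9.77 to 10.11 against 10.19 to 10.57, as was Tpm4 at 10.20 to 10.28 against 10.45 to 10.56. Of the 38 members, these 5 were without overlap, 3 higher and 2 lower. Among all genes 12.4% were higher and 9.08% lower without overlap, so that members were not separated by number more often than other genes. These arrays were set apart after their values had been seen, and the meaning of the number is not given in the sources used. When these 4 arrays were left out, 5 members passed for TGF-β in WT MSCs, Pdlim7 (0.61, adjusted p = 0.0235) in place of Pxn. Between arrays of number 1, the median difference of p38α∆ against WT MSCs with TGF-β was 0.12 over the members, and it was also 0.12 for number 4.

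**Figure D5:**
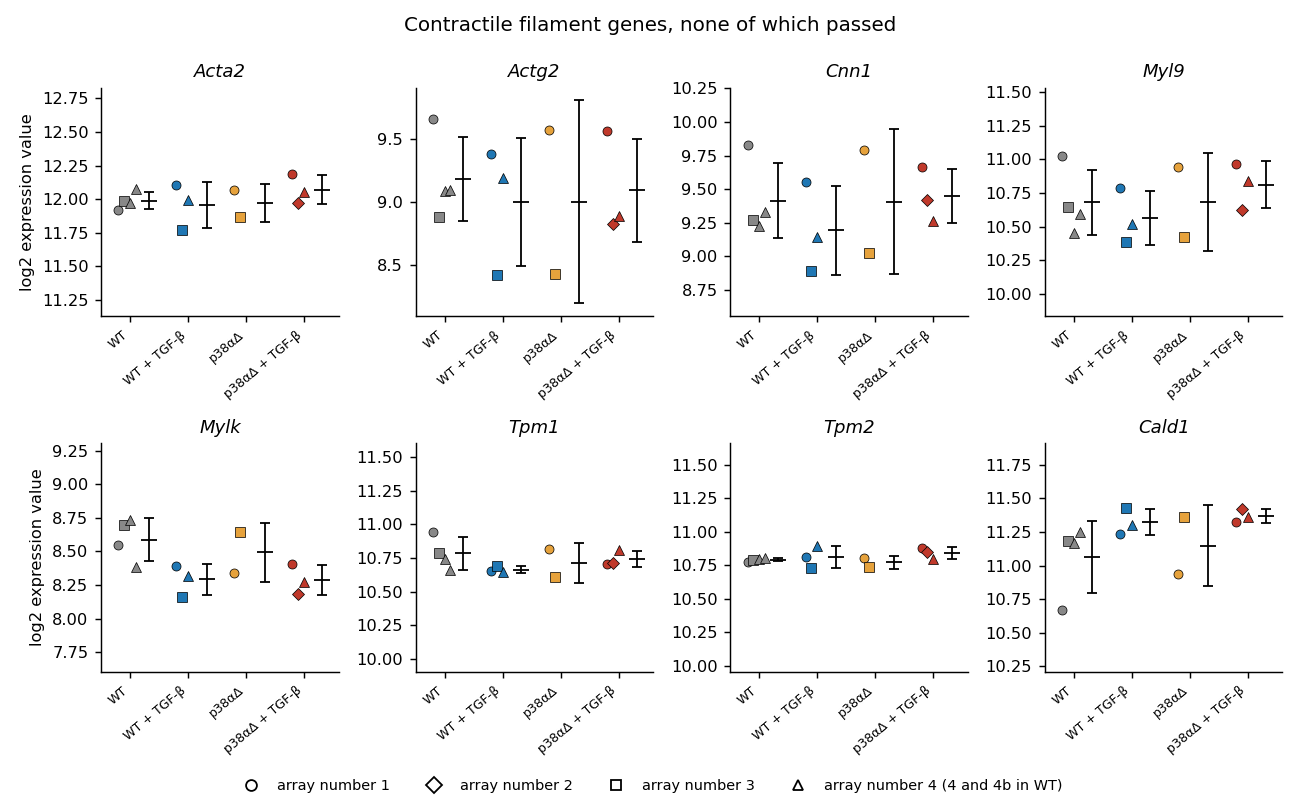
Values of 8 contractile filament genes, 1 panel a gene, with 1 point for each array (shape gives the array number) and a bar for the mean ± SD of the group. The y axis is the log2 value, with its own range in each panel. None of the 8 passed for TGF-β or genotype, and in Actg2 and Cnn1 the circles of arrays numbered 1 lie above all other points.

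Other genes of the actin cytoskeleton, not listed as members, passed in both directions with TGF-β, and those that rose were near the share of all genes. Of 68 such genes, 60 were measured. In WT MSCs 2 rose with TGF-β (3.33%, against 4.02% of all genes) and 6 fell (10%, against 5.36%). In p38α∆ MSCs 2 rose (3.33%, against 3.43%) and 5 fell (8.33%, against 4.97%). In the other 3 comparisons 0 passed, where 0.45% of all genes or fewer did. Pdlim1, which encodes a PDZ and LIM protein of stress fibres, rose by 0.73 in WT (adjusted p = 0.00507) and by 1.03 in p38α∆ MSCs (adjusted p = 0.0036). Its values were 7.05 to 7.83 in WT and 7.84 to 8.45 with TGF-β, and 7.21 to 7.80 in p38α∆ and 8.30 to 8.77 with TGF-β. Limk2, a kinase that blocks cofilin, rose by 0.41 in WT MSCs, and Fhl2, a LIM protein that binds SRF, by 0.53 in p38α∆ MSCs.

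Svil, which encodes supervillin, a membrane protein that binds actin and myosin II, fell in both. It was 8.79 to 8.94 in WT and 7.88 to 8.05 with TGF-β, and 8.64 to 9.02 in p38α∆ and 7.71 to 8.01 with TGF-β, and its fitted changes were -0.85 (adjusted p = 5.53e-05) and -0.95 (adjusted p = 0.000219). In the same order, Pdlim2 changed by -0.70 and -0.68, and Crip2 by -0.44 and -0.77. Sorbs3, the vinculin-binding vinexin, changed by -0.40 and -0.68. Mrtfb, the sister factor of Mrtfa, fell by 0.51 in WT MSCs. Among the PDZ and LIM genes named here, directions therefore differed: Pdlim1 rose and Pdlim2 fell in both genotypes. Other genes of this group, measured near the lower end of the scale, are not named. Pdlim7 passed in p38α∆ MSCs with the probeset used, and Pdlim5 passed in neither genotype.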

How the data were processed

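Affymetrix MG-430 PM arrays were used for RNA of 12 MSC samples in 4 groups. The authors normalized the raw files with affy and affyPLM by RMA (background correction and summarization by probeset), versions not given in the sources used here, and the deposited values are log2 intensities, 1 column for each array, for 45101 probesets. The depth of an array has no count, so that the number of arrays limits the precision. RMA pulls low values together and shortens fold changes of dim genes.

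Control probesets (64) were set aside. Of the rest, 28898 carried 1 gene symbol in the platform annotation, 551 several and 15588 none here. Per gene the probeset with the highest mean over all arrays was kept, which gave 17097 genes and 38 of the 43 members. Of the members, 15 had 1 probeset and 23 several, and 8 were read by probesets that may match several transcripts (suffix s_at for Acta2, Cald1, Actn1, Lpp and Srf, and x_at for Cnn3, Flnc and Pdlim5).

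Groups were taken from the sample titles. Group means of all 12 arrays were fitted with limma 3.58.1 in R 4.3.3 (lmFit and eBayes), with the array number (4b counted as 4) as a random block (duplicateCorrelation, consensus correlation 0.488), so that fitted differences are not plain differences of means. The methods name the scanning batch as a covariate, which is not given in the sources used here. Benjamini-Hochberg adjustment ran over all genes within each of 5 comparisons, and an adjusted p under 0.05 was called. Two-sided tests were used throughout, and errors are SEs or 95% intervals of the fit. The code was tested on simulated data. Alternatives were the fit without the block or with it as a fixed term, another probeset or all probesets, a filter on dim genes (mean under 4), other scalings, only the groups compared, the arrays numbered 1 left out and each array left out.

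All members were named. Of 68 other actin genes, up to 4 with the largest change were named per direction and comparison. The members and lists were chosen with earlier results of these data known. Promoter windows were those of RefSeq (GRCm38.p6).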

Additional observations from a re-analysis of the deposited data

Results flagged for a closer look

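In the 4 WT arrays, 4 members had 1 array far from the rest, that numbered 1 each time. The gap to the nearest of the other arrays, as a share of the range of the 4, was 0.905 for Pdlim7, 0.895 for Myocd, 0.889 for Pdlim5 and 0.857 for Cald1, all above Dixon's 95% critical value for 4 samples. Pdlim7 was 8.43 on this array and 7.69 on the nearest, Pdlim5 9.77 and 10.35, Cald1 10.67 and 11.17, and Myocd 3.50 and 3.38, near the lower end of the scale. Chance flags about 1 in 20 groups, and 38 members were examined in arrays that they share. The share of all genes flagged in this way was not computed. The arrays numbered 1 also stood apart on the first principal component of all genes, so these 4 members are not shown to be particular. The other groups had 3 arrays or fewer and were not examined in this way.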

How the results depend on the processing

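Of 3894 values recomputed for single members, 3856 kept their side of the threshold, 34 lost the call and 4 gained it. The sign changed in 272 values, 0 of them in a member and comparison that had passed. In WT MSCs 5 members passed for TGF-β, 3 with no replicate block and 3 with the number as a fixed block, and 3 to 5 with 1 array left out (3 without the TGF-β-treated WT arrays 1, 3 or 4 and without the WT arrays 3 or 4b). In p38α∆ MSCs 7 passed, 5 with no block or a fixed block, and 4 to 7 with 1 array left out, 4 without the p38α∆ array 3. With no block Zyx (0.70, adjusted p = 0.101) and Pdlim7 (0.94, adjusted p = 0.0783) did not pass there. For p38α∆ against WT MSCs with TGF-β, 1 member passed with the probeset of highest median absolute deviation, and 0 in each fit with 1 array left out. Members above 0 in that comparison numbered 29 to 34 over the alternatives. For all genes, 1604, 1436 and 77 passed in these comparisons, 602, 624 and 14 with no block, and 14 with a fixed block in the last, 147 in the last with only the groups compared and 29 with the arrays numbered 1 left out. With 1 array left out, these counts were 975 to 1840, 698 to 1644 and 7 to 113. Over all 45037 probesets, 2704 passed for TGF-β in WT, 2347 in p38α∆ MSCs and 3 for the difference of the responses. The TGF-β response in p38α∆ MSCs was not fitted on its own groups alone, because no block correlation was obtained from those 5 arrays. Same-numbered arrays of different groups deviated together for number 1 (correlations of 0.645 to 0.845) and number 3 (0.678 to 0.785). They did so less for number 4 (0.0236 to 0.305). With only 2 p38α∆ arrays, the deviations of array 3 are by construction the reverse of those of array 1. Some arrays of different numbers also deviated together, such as the TGF-β-treated p38α∆ array 2 and the TGF-β-treated WT array 3 (0.753). The numbers are therefore not shown to pair the arrays. WT arrays 4 and 4b had identical values for 9 of 17097 genes and were counted as separate arrays.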
